A study of Rattus norvegicus with 15 samples.

Results

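A list of 10 genes of the NRF2 antioxidant pathway was followed across the x-ray series. The list held Nfe2l2, which encodes NRF2 itself, its inhibitor Keap1, and the stress and redox genes Hmox1, Nqo1, Gclc, Gclm, Srxn1, Txnrd1, Slc7a11 and Gpx4. Of these 10 genes, 9 had rows in the expression table, with 26 of its 85322 transcript rows, and the table held 37367 genes in all. Srxn1 had no row under its name and was not analysed here. Of the 9 genes with rows, 8 were above the minimum level used for tests, a mean FPKM of 0.5 over the libraries (fragments per kilobase of transcript, scaled to library size), and Slc7a11 was below it.

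The cells were primary cultures labelled brain microvascular endothelial cells (BMECs), grown from the cerebral microvessels of Sprague-Dawley littermates aged 2 to 3 weeks. There were 5 groups of 3 poly-A RNA libraries each, which were unexposed controls, and cells 12 h or 24 h after 5 Gy or 20 Gy of x-rays. The control group is labelled as 12 h in culture without radiation, and no unexposed culture of 24 h was analysed here, so time after exposure and time in culture cannot be told apart at 24 h. The study's methods name the libraries of a group as biological replicates. The p-values by limma rest on the spread between libraries within groups, shared over all 15 libraries, and not on the 3 libraries of a group alone.

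NRF2 is a transcription factor that KEAP1 holds in the cytoplasm and delivers to the proteasome. Oxidants and electrophiles modify KEAP1, after which NRF2 accumulates, pairs with a small MAF protein and binds antioxidant response elements near its target genes. In brain vessels the pathway is known for the supply of glutathione and thioredoxin reducing power, for quinone and heme breakdown, and for protection against lipid peroxides. Much of the control of NRF2 acts on the protein, which these RNA data did not measure.

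The core of the antioxidant response element, written TGACNNNGC on one strand and GCNNNGTCA on the other, was searched in the 250 bases before the annotated start of each gene (RefSeq, assembly GRCr8). Of the 9 listed genes with an entry in the promoter table, Srxn1 among them, 1 held a match, Gclm, and 10.2% of all 27457 promoters held one. Hmox1 has no entry. For 4 of the 9 genes (Nfe2l2, Gclc, Txnrd1 and Slc7a11) the window lay wholly or mostly inside the annotated gene, because the table's start is not the outermost one. The promoters of Gclm and Nqo1 are printed because these genes moved in opposite directions at 24 h and their windows lie outside the gene. Capitals mark the match, whose first base lies 172 bases before the start of Gclm. A match is a description of letters and not of binding. Sequence further than 250 bases from the start was not searched, so a gene without a match may still hold an element there.
Gclm, chr2:213031885-213032134, plus strand: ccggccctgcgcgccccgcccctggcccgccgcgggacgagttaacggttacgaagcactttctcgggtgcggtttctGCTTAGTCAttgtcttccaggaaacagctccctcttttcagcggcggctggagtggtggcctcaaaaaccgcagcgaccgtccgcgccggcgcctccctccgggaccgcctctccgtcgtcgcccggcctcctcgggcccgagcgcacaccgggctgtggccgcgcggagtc
Nqo1, chr19:52220268-52220517, minus strand: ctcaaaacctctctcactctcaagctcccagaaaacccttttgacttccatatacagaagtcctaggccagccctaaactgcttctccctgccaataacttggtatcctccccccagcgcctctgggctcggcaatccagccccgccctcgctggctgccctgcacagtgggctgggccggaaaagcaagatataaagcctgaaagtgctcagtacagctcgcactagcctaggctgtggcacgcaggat

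The levels below are FPKM summed over all rows of a gene, a value per length and library size, so that genes may be set side by side. Aligned sequence came to between 5.44 and 7.49 gigabases per library. Of 12 endothelial marker genes, 7 had a mean FPKM under 0.5 and Pecam1 had no row. Cdh5, Cldn5 and Vwf had means of 0.0763, 0.00429 and 0.0364 FPKM, and Tie1 and Slco1c1 were listed at 0 in every library. Others of the list were present, with Slc2a1, a glucose transporter that other cells also use, at 12.4 to 25.7 FPKM, Flt1 at 1.16 to 5.48 and Egfl7 at 1.4 to 2.83. The 6 fibroblast markers summed to between 1798 and 1987 FPKM in the controls, so the levels of most defining markers went against the label of the cells. That sum was 1437 to 1547 FPKM at 12 h after 5 Gy, 1273 to 1378 at 12 h after 20 Gy, and at 24 h 284 to 314 after 5 Gy and, after 20 Gy, 272 to 326. In the controls most of that sum was 3 collagens. At 24 h 5 of the 6 markers were called lower at each dose, where 20.8% and 23.3% of all genes were called lower. Dcn was 174 to 220 FPKM in the controls and 75.9 to 96.5 over both 24 h groups. Lum was 170 to 261 FPKM in the controls and 36.9 to 91.1 over both 24 h groups. Pdgfra of the same list was 51.7 to 52.6 FPKM in the controls and 43.8 to 66.8 over both 24 h groups, not called. The 8 heat shock genes with a row summed to 231 to 258 FPKM in the controls, to 1925 to 2646 at 24 h after 5 Gy and to 7341 to 8811 at 24 h after 20 Gy. The 7 macrophage markers summed to at most 4.98 FPKM in any library. In such bulk samples fewer cells of a type and less RNA per cell cannot be told apart, and the part of these shifts in the results below was not tested.

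In the controls Gpx4 stood highest of the listed genes, at 246 ± 15.2 FPKM (SD, n = 3). Hmox1 (142 ± 6.73), Nqo1 (127 ± 27.1) and Gclc (127 ± 12.6) followed, and Nqo1 overlapped both others, while the lowest Hmox1 library was above the highest of Gclc. Nfe2l2 (83.2 ± 10.1) and Txnrd1 (67.7 ± 3.06) came next without overlapping each other. Gclm (21.4 ± 1.33) and Keap1 (14.7 ± 0.774) were lower again, and Slc7a11 was close to 0. At 24 h after 20 Gy the order was Hmox1 (251 ± 24.2), Gpx4 (212 ± 48.5) and Gclc (181 ± 19.1), with Nqo1 (60.7 ± 30.4) now below Nfe2l2 (134 ± 13.4). Hmox1 and Gpx4 overlapped in that group, as did Gpx4 and Gclc, and also Txnrd1 (72.8 ± 13.2) and Nqo1. The plot of levels by library shows each value.

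**Figure D1:**
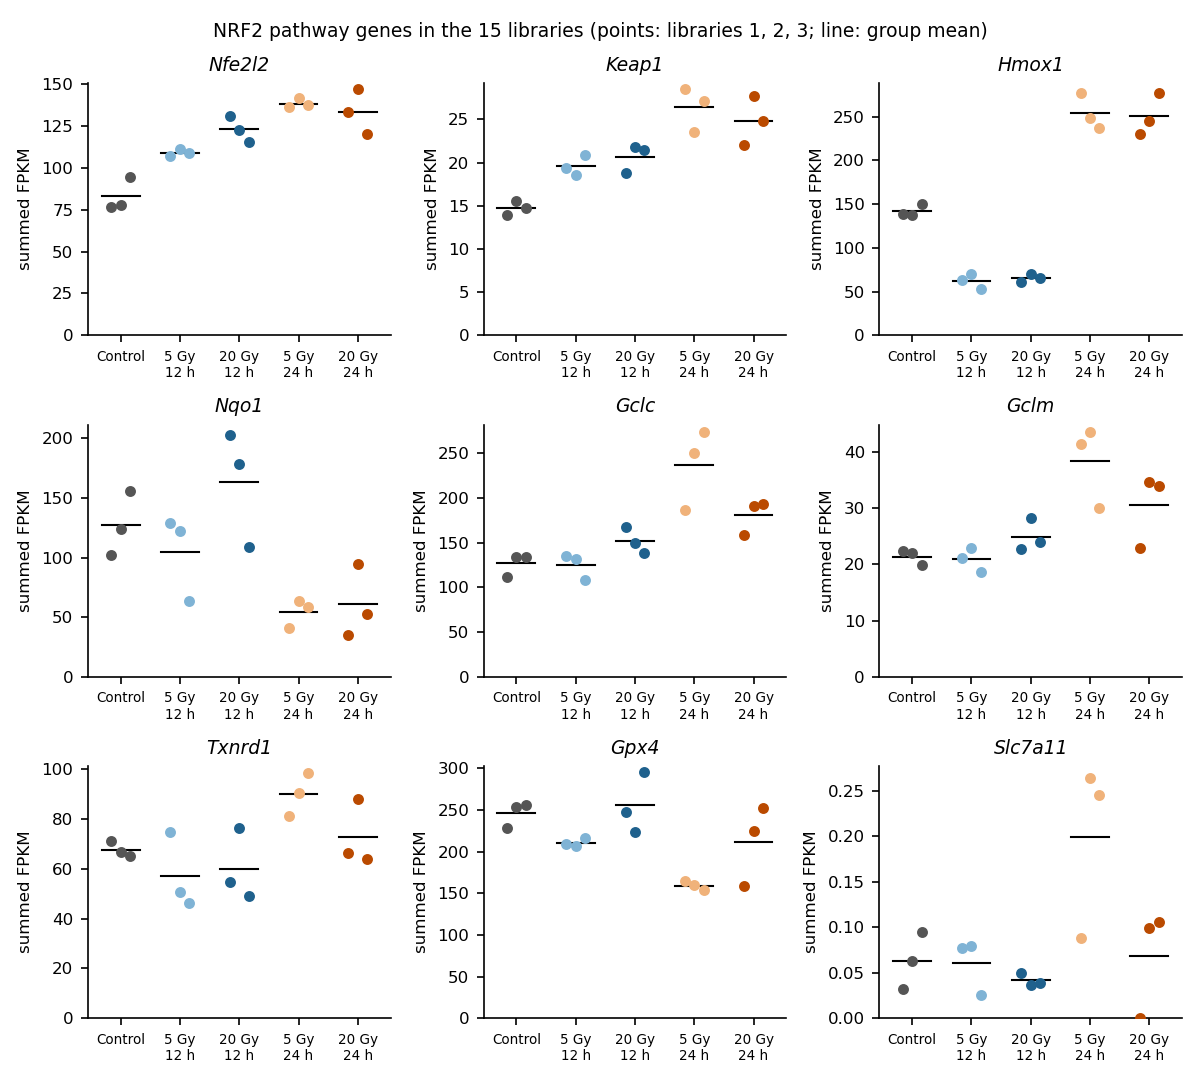
Summed FPKM (vertical axes, linear from 0) of the 9 listed genes with rows, for the control and the 4 exposed groups; points are libraries 1 to 3 and lines are group means. Hmox1 lay at 53.5 to 70.2 FPKM in the 6 libraries of 12 h and at 230 to 277 in the 6 libraries of 24 h, on either side of the controls at 138 to 150.

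A gene was called changed where limma gave an adjusted p under 0.05 over all 17895 genes tested together with a change of 1.5-fold or more. Fold changes are on the log2(FPKM + 1) scale. At 24 h after 5 Gy, 7 of the 8 tested genes were called, 5 higher and 2 lower, against 41.3% of all genes. At 24 h after 20 Gy, 4 were called, 3 higher and 1 lower, against 40.3% of all genes. At 12 h a single gene was called at each dose, Hmox1, which fell, against 9.94% of all genes after 5 Gy and 8.54% after 20 Gy. The median log2 fold change of the 8 genes at 12 h was -0.13 at the lower dose and 0.24 at the higher dose, where all genes had 0.03 and 0.01. At 24 h it was 0.77 after 5 Gy and 0.49 after 20 Gy, where all genes had -0.06 and -0.14. The 4 comparisons with control share the same 3 control libraries.

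**Figure D2:**
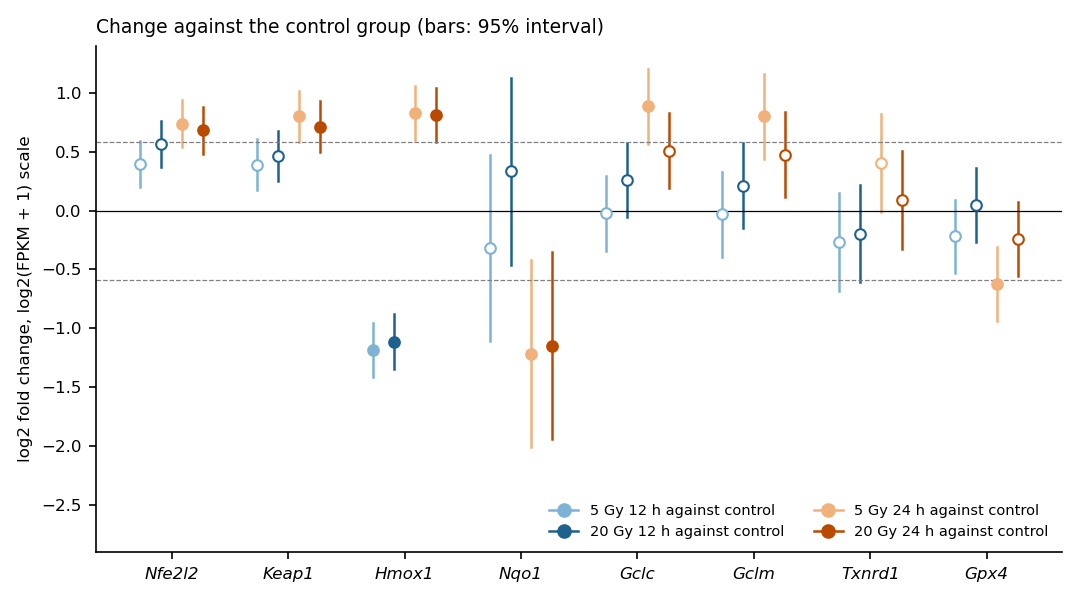
Log2 fold change against control on the log2(FPKM + 1) scale (vertical axis) for the 8 tested genes and the 4 exposed groups; filled points were called, open points were not, bars are 95% intervals and dashed lines mark a fold change of 1.5. Hmox1 is called below 0 at 12 h and above 0 at 24 h, and the intervals of Nqo1 are the widest.

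Nfe2l2 and Keap1, the sensor pair, rose together in level. Nfe2l2 lies on chromosome 3 from 62497571 to 62524996 (Rnor_6.0, minus strand). Its level was 77.0, 77.7 and 94.8 FPKM in the controls, 107, 112 and 109 at 12 h after 5 Gy, and 131, 123 and 115 at 12 h after 20 Gy. At 24 h it was 136, 142 and 138 after 5 Gy and 133, 147 and 121 after 20 Gy. All 12 exposed libraries lay above the 3 controls. The log2 fold change at 24 h was 0.74 (SE 0.0915, adjusted p = 1.715e-05 by limma) after 5 Gy and 0.68 (adjusted p = 3.567e-05) after 20 Gy. At 12 h the values were 0.39 (adjusted p = 0.00958) and 0.56 (adjusted p = 0.00123), below the fold change needed for a call. The value after 20 Gy crossed that line under other scalings, at 0.62 with quantile normalization and 0.61 on TPM, the scale on which every library sums to the same total. It also crossed it without the third control library, at 0.66, and without the third library of its own group, at 0.61.

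Keap1, the adaptor that links NRF2 to a ubiquitin ligase, lies on chromosome 8 from 22250177 to 22259840 (minus strand). Its controls had 13.9, 15.5 and 14.7 FPKM, the libraries of 12 h had 19.4, 18.5 and 20.8 after 5 Gy and 18.8, 21.8 and 21.4 after 20 Gy. At 24 h they had 28.5, 23.6 and 27.2 after 5 Gy and 22.0, 27.7 and 24.9 after 20 Gy. Again each exposed library was above every control. Keap1 was called at 24 h, with log2 fold changes of 0.80 (SE 0.0989, limma adjusted p = 1.638e-05) after 5 Gy and 0.71 (adjusted p = 4.675e-05) after 20 Gy, and not at 12 h (0.39 and 0.46). The ratio of Nfe2l2 to Keap1 FPKM was 5.01 to 6.45 in the controls, 4.79 to 6.0 at 24 h after 5 Gy and 4.85 to 6.07 at 24 h after 20 Gy, so the groups overlapped in the ratio of both levels.

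The rows that make up these sums did not stay in proportion. The annotated Nfe2l2 row held 20.7% to 26% of the gene's FPKM in the controls and 2.37% to 3.42% at 24 h after 5 Gy. The rest was in a second row assembled by the authors from the reads, also of 5 exons, with a length of 2282 against 2307 bases. At 12 h the share of the annotated row was 20.9% and 21.6% in the third library of each dose, against at most 4.35% in the other 4 libraries. At 24 h after 20 Gy it was 13.9% in the third library and 3.66% and 3.80% in the others. The annotated row alone gave Nfe2l2 a log2 fold change of -2.06 at 24 h after 5 Gy (limma adjusted p = 0.0252), the opposite sign to the sum. After 20 Gy it gave -1.24 (adjusted p = 0.161), also of the opposite sign but not called. The assembled Nfe2l2 row, with 74.0% to 97.6% of the sum, went the way of the sum, at 1.09 and 0.97 at 24 h. That row alone was called higher at 12 h as well, at 0.63 after 5 Gy and 0.81 after 20 Gy (limma adjusted p = 0.0207 and 0.00637). The annotated Keap1 row was listed at 0 in every library, with all signal in 4 assembled rows. The highest of these alone gave -0.33 and -1.41 at 24 h (limma adjusted p = 0.785 and 0.204, not called). Rows of one gene overlap and share reads, so their split is an estimate and the sum is the firmer value.

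Hmox1, heme oxygenase 1, breaks heme down to biliverdin, carbon monoxide and iron. It lies on chromosome 19 from 14508616 to 14515456 (plus strand). Its level was 139, 138 and 150 FPKM in the controls. At 12 h it was 63.8, 69.9 and 53.5 after 5 Gy and 60.4, 70.2 and 65.6 after 20 Gy, below every control. At 24 h it was 277, 248 and 237 after 5 Gy and 230, 245 and 277 after 20 Gy, above every control. Hmox1 thus stood lower than control at 12 h and higher at 24 h at both doses, and the libraries of 12 h, control and 24 h did not overlap. The log2 fold changes at 12 h were -1.18 (SE 0.106, limma adjusted p = 1.298e-05) and -1.11 (adjusted p = 2.205e-05), and the mean FPKM was 0.439 and 0.460 times that of control. At 24 h they were 0.83 (adjusted p = 2.095e-05) and 0.81 (adjusted p = 2.820e-05), or 1.79-fold and 1.76-fold in mean FPKM. Hmox1 is among the genes that the study chose on these same libraries as changed in every exposed group, so its calls are not independent evidence.

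From 12 h to 24 h Hmox1 rose by 2.01 log2 units after 5 Gy (SE 0.106, limma adjusted p = 1.795e-08) and by 1.92 after 20 Gy (adjusted p = 2.393e-08), 4.07-fold and 3.83-fold in mean FPKM. The difference between those rises was -0.09 (95% interval -0.42 to 0.23, adjusted p = 0.835). At 12 h, 20 Gy differed from 5 Gy by 0.07 (95% interval -0.16 to 0.30) and at 24 h by -0.02 (-0.25 to 0.21), and the libraries of both doses overlapped. The genes whose level followed Hmox1 most closely over the 15 libraries, among 8007 candidates, were Pim1, a serine/threonine kinase (Pearson r = 0.988), Ube2ql1 (r = 0.973) and Nr4a1, an orphan nuclear receptor (r = 0.973). The libraries come in 5 groups, so these values largely describe group means.

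Most of the Hmox1 signal was in its annotated row of 5 exons and 1566 bases, and an assembled row between the same ends had 3 exons and 4114 bases. The assembled row had 7.13, 4.63 and 3.31 FPKM in the controls and between 1.30 and 2.12 at 12 h. At 24 h it had 5.37, 9.83 and 5.10 FPKM after 5 Gy and 21.0, 30.8 and 23.3 after 20 Gy. Its share of the Hmox1 sum was 8.39% to 12.6% in the latter group, against 1.93% to 3.96% at 24 h after 5 Gy and 2.21% to 5.14% in the controls. In a fit over 41932 single transcripts, added after the values were seen, this row was 1.78 log2 units higher after 20 Gy than after 5 Gy at 24 h (SE 0.269, limma adjusted p = 0.00715), where 1.1% of transcripts were called. With only those 6 libraries in the fit the adjusted p was 0.146, and it was 0.00329 to 0.0332 when single libraries were left out. The test of whether its rise over time differed between the doses gave 1.77 (adjusted p = 0.116). The annotated row differed by -0.13 between the doses at 24 h (adjusted p = 0.735). The heat shock sum was also higher at 24 h after 20 Gy than after 5 Gy, and its part was not tested.

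**Figure D3:**
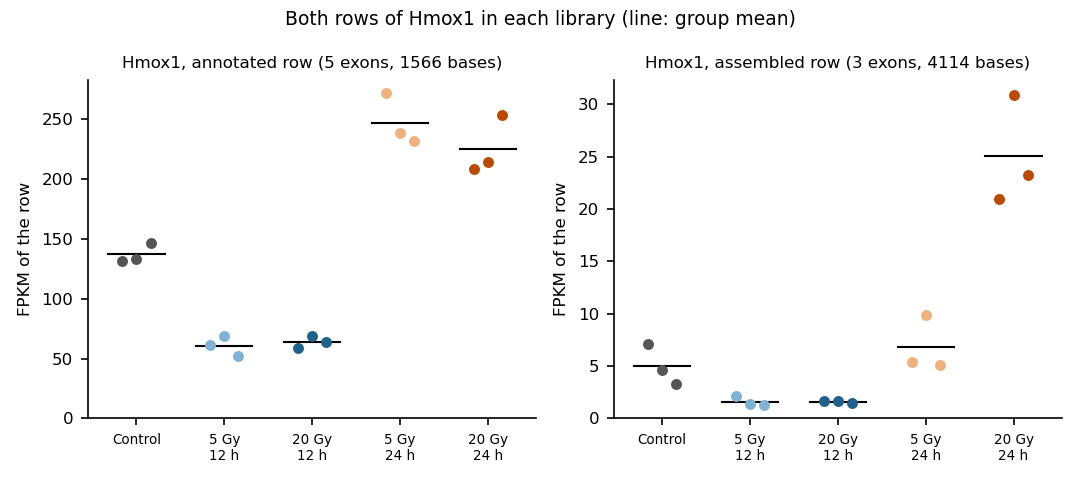
FPKM of the annotated (left) and the assembled (right) row of Hmox1 in each library, linear axes from 0, with group means as lines. The annotated row lay at 209 to 272 FPKM in both 24 h groups, and the assembled row at 5.10 to 9.83 after 5 Gy and 21.0 to 30.8 after 20 Gy.

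Nqo1, which reduces quinones with NADH or NADPH, went the other way at 24 h. The gene has 1 row, on chromosome 19 from 38422164 to 38437180 (plus strand). Its controls had 102, 124 and 156 FPKM. At 24 h it had 40.5, 63.9 and 58.4 after 5 Gy and 35.2, 94.3 and 52.7 after 20 Gy, all below the lowest control. At 12 h it had 129, 122 and 63.7 after 5 Gy and 203, 178 and 109 after 20 Gy, and both groups overlapped the controls. The third library was the lowest of its group at both doses. The log2 fold change at 24 h was -1.22 (SE 0.366, limma adjusted p = 0.0117) after 5 Gy and -1.15 (adjusted p = 0.0163) after 20 Gy, and at 12 h -0.32 (adjusted p = 0.603) and 0.33 (adjusted p = 0.599).

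The error of Nqo1 was the largest of the 8 genes, and its calls at 24 h rested on single libraries. The call after 5 Gy was lost without the first library of that group, at -1.02. The call after 20 Gy was lost without the third control, at -0.99, and without the first library of its own group, at -0.82, with the same direction in each. From 12 h to 24 h Nqo1 fell by 1.48 after 20 Gy (adjusted p = 0.00412) and by 0.90 after 5 Gy (adjusted p = 0.0533, not called). The latter was called without the third library of 12 h after 5 Gy, at -1.22. The ratio of Hmox1 to Nqo1 was 0.963 to 1.36 in the controls, 0.297 to 0.840 over both 12 h groups and 2.60 to 6.84 over both 24 h groups, which did not overlap.

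Gclc and Gclm encode the catalytic and the modifier subunit of glutamate-cysteine ligase, which makes the first bond of glutathione. Gclc (chromosome 8, 85059051 to 85097468, plus strand) had 112, 133 and 134 FPKM in the controls and 186, 250 and 274 at 24 h after 5 Gy. Cells given 20 Gy had 159, 190 and 193 at that time. These 24 h groups lay above the controls, with log2 fold changes of 0.88 (SE 0.146, limma adjusted p = 0.0001862) and 0.51 (adjusted p = 0.00904). Only the first of these reached the fold change for a call, and the second did so with quantile normalization (0.68), on TPM (0.59) and without the first library of its group (0.60). At 12 h Gclc had 135, 131 and 108 FPKM after 5 Gy, overlapping the controls, and 167, 150 and 138 after 20 Gy, above them, with log2 fold changes of -0.02 and 0.26 that were not called.

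Gclm (chromosome 2, 225827214 to 225847874, plus strand) had 22.4, 22.0 and 19.9 FPKM in the controls. It had 41.5, 43.6 and 30.0 at 24 h after 5 Gy and 23.0, 34.7 and 34.0 after 20 Gy, above every control. The log2 fold change was 0.80 (SE 0.166, limma adjusted p = 0.00112) and was called after 5 Gy. After 20 Gy it was 0.47 (adjusted p = 0.0265), which reached 0.66 and a call without the first library of that group. At 12 h it was -0.03 after 5 Gy and 0.21 after 20 Gy. Gclm was the listed gene with the response element match printed above. Gclc had the same order of group means at 24 h. Its window lay mostly inside the annotated gene, so the search could not show whether its promoter holds a match. The ratio of Gclc to Gclm overlapped between all groups, at 5.01 to 6.76 in the controls and 5.49 to 6.92 at 24 h after 20 Gy, with the widest range at 24 h after 5 Gy, 4.49 to 9.11.

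Slc7a11, the light chain of the cystine importer that feeds glutathione synthesis, was almost without signal. Its highest level in any library was 0.264 FPKM, in the second library of 24 h after 5 Gy, where 12782 aligned bases fell on a transcript of 8894 bases (chromosome 2, 139453774 to 139528162, minus strand). It was 0.0325 to 0.0948 FPKM in the controls and was listed at 0 in the first library of 24 h after 20 Gy. An exact 0 in this table may be a failed estimate, since Hspa8, a chaperone that all cells use, was listed at 0 in every library. The third library of 24 h after 5 Gy had 0.246 FPKM and the first 0.0885, within the range of the controls. No fold change is given at this depth. Slc3a2, the heavy chain that pairs with Slc7a11 and with other light chains, had 166 ± 5.34 FPKM in the controls and rose to 503 ± 14.0 and 433 ± 40.9 at 24 h after 5 Gy and 20 Gy (log2 fold changes 1.59 and 1.37, limma adjusted p = 4.608e-08 and 1.648e-07).

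Txnrd1, the cytosolic thioredoxin reductase, lies on chromosome 7 from 26946125 to 26984400 (minus strand). It had 71.1, 66.8 and 65.1 FPKM in the controls and 81.3, 90.4 and 98.6 at 24 h after 5 Gy, without overlap. The log2 fold change there was 0.40 (SE 0.191, limma adjusted p = 0.0858), not called, and 0.64 with a call under quantile normalization. After 20 Gy it had 66.5, 87.9 and 63.9 FPKM at 24 h, overlapping the controls (0.09, adjusted p = 0.708). At 12 h it had 74.7, 50.7 and 46.2 after 5 Gy and 54.6, 76.5 and 49.0 after 20 Gy, around the controls in both groups. From 12 h to 24 h after 5 Gy it rose by 0.67 (adjusted p = 0.00929), and that call was lost without the third library of 12 h, at 0.54. The 4 rows of Txnrd1 traded places between libraries of one group. For the same comparison the highest row alone gave -1.88 (limma adjusted p = 0.139, not called).

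Gpx4, which reduces lipid hydroperoxides with glutathione and holds back ferroptosis, fell at 24 h after 5 Gy. It lies on chromosome 7 from 12516352 to 12519154 (minus strand). Its level was 228, 254 and 255 FPKM in the controls and 164, 160 and 154 at 24 h after 5 Gy, below every control. After 20 Gy it was 158, 225 and 253 at 24 h, overlapping the controls. The log2 fold change was -0.62 (SE 0.144, limma adjusted p = 0.00242) after 5 Gy and -0.24 (adjusted p = 0.174) after 20 Gy. The call was lost with quantile normalization (-0.36), on TPM (-0.48) and with the highest of its 6 rows alone (-0.03). At 12 h it was 209, 207 and 217 FPKM after 5 Gy, below every control, and 248, 224 and 296 after 20 Gy (-0.22 and 0.05, not called). In the fit over single transcripts, a Gpx4 row of 3 exons was called lower at 24 h after both doses. The log2 fold changes were -1.98 and -3.47 (limma adjusted p = 0.000414 and 6.19e-06), and no other Gpx4 row was called there. The called row had 10.7 to 21.0 FPKM in the controls. At 24 h it had 2.29 to 4.64 after 5 Gy and 0.371 to 0.917 after 20 Gy. For 20 Gy against 5 Gy at 24 h it gave -1.496 (limma adjusted p = 0.0357). It held at most 9.21% of the Gpx4 sum in any library. Gpx4 overlaps Sbno2 on the opposite strand by 2308 bases, and the Sbno2 rows in that stretch summed to 18.6 to 20.5 FPKM in the controls. At 24 h they summed to 54.2 to 81.0 FPKM after 5 Gy and 32.7 to 96.7 after 20 Gy. The sources used here do not say that the counting used strand, so reads of the shared stretch may not be told apart.

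Between the times, 4 of the 8 genes were called after 5 Gy, all higher at 24 h (Hmox1, Gclc, Gclm and Txnrd1), against 36.4% of all genes. After 20 Gy 2 were called, Hmox1 higher and Nqo1 lower, against 36.3%. That a gene passed at one dose and not at the other does not show a difference between doses. The direct test, whether the change over time differed between the doses, called 0 of the 8 genes by limma, where 0.52% of all genes were called. Gclc (-0.66) and Gclm (-0.57) had an unadjusted p under 0.05, as did 12.9% of all genes.

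Between the doses, 0 of the 8 genes were called by limma at 12 h, with 0.123% of all genes called, and 0 had an unadjusted p under 0.05, against 7.12% of all genes. At 24 h 0 were called, with 2.42% of all genes called, and 2 had an unadjusted p under 0.05, against 20.0% of all genes. These were Gclc, at -0.37 for 20 Gy against 5 Gy (95% interval -0.69 to -0.06), and Gpx4, at 0.38 (0.07 to 0.70). With 3 libraries against 3 the exact two-sided permutation test cannot go below p = 0.1, which it gave for each of the 8 genes at 24 h after 5 Gy against control and for 6 of them at 24 h after 20 Gy. It gives that value where the groups do not overlap, as in 67.4% and 62.7% of all genes.

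Of 81 further genes, 76 could be tested. They came from lists of NRF2 partners and of redox, iron, NADPH, detoxification and ferroptosis genes, and were not limited to NRF2 targets. At 24 h 13 were higher and 14 lower after 5 Gy, and 12 higher and 16 lower after 20 Gy. That is 35.5% and 36.8% of them, against 41.3% and 40.3% of all genes, which is also the background of the counts per list below. At 12 h 3 were higher and 7 lower after 5 Gy (13.2%, against 9.94% of all genes), and 4 higher and 0 lower after 20 Gy (5.26%, against 8.54%). Their median log2 fold change was -0.23 and -0.25 at 24 h, against -0.06 and -0.14 over all genes. For 20 Gy against 5 Gy, 0 of the 76 were called at 12 h, against 0.123% of all genes. At 24 h 1 was higher, in the thioredoxin list, and 2 were lower, in the glutathione and NADPH lists (3.95%, against 2.42% of all genes). The heat map of these further genes shows those named by a fixed rule from each list.

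Among 12 tested partners and regulators of NRF2, 1 was higher and 1 lower at 24 h at each dose. The higher one was Crebbp, a coactivator, at log2 fold changes of 1.70 and 1.76 (limma adjusted p = 5.349e-07 and 4.243e-07), with 9.06 ± 0.994 FPKM in the controls and 33.3 ± 4.59 after 20 Gy. Of 11 detoxification and export genes, 4 were higher and 2 lower at 24 h after 5 Gy, and 5 and 1 after 20 Gy. Cbr3, a carbonyl reductase, rose from 8.10 ± 0.562 FPKM to 125 ± 13.5 and 105 ± 27.8 at 24 h (3.79 and 3.51). Ephx1, the microsomal epoxide hydrolase, was already raised at 12 h, from 138 ± 9.89 to 542 ± 29.7 and 604 ± 25.9 FPKM, and stood at 539 ± 14.8 and 807 ± 134 at 24 h. Ugdh, which makes UDP-glucuronate, fell at 24 h (-0.69 and -0.74).

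The glutathione list without the listed genes had 3 of 14 higher and 5 lower at 24 h after 5 Gy, and 2 and 5 after 20 Gy. Glrx, a glutaredoxin, went from 46.3 ± 12.2 FPKM to 14.6 ± 3.40 and 14.5 ± 3.25 at 24 h, and Gstp1, a glutathione transferase, from 311 ± 88.9 to 126 ± 38.3 and 115 ± 32.9. Of 12 thioredoxin system genes, 1 was higher and 5 lower at 24 h after 5 Gy, and 1 and 3 after 20 Gy. Sesn2, a stress-induced protein that aids peroxiredoxins, rose at both times, from 19.8 ± 2.27 FPKM to 39.6 ± 2.39 and 47.1 ± 2.90 at 12 h and to 107 ± 9.30 and 106 ± 14.6 at 24 h. Txnip, which binds and inhibits thioredoxin, rose at 12 h, from 89.4 ± 3.22 FPKM to 242 ± 14.7 and 259 ± 15.6, and fell at 24 h to 13.3 ± 5.21 and 45.2 ± 28.2. Its order of levels over control, 12 h and 24 h was the reverse of that of Hmox1. Prdx4, a peroxiredoxin, fell at 24 h (-1.21 and -1.19).

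Among 11 heme and iron genes, 2 were higher and 0 lower at 24 h after 5 Gy, and 0 and 3 after 20 Gy, with Aco1 and Abcb6 named by the rule at -0.84 and -0.62 after 20 Gy. Of 6 genes of NADPH supply, Mthfd2, a mitochondrial folate enzyme, fell at 12 h after 5 Gy (-0.82) and rose at 24 h (2.49 after 5 Gy and 1.51 after 20 Gy), and Idh1 fell at 24 h after 20 Gy (-0.75). Of 4 superoxide dismutases and catalase, 0 were called at 24 h after 5 Gy by limma, and 1 fell after 20 Gy, Sod3 (-0.59). After 5 Gy Sod3 (-0.47) and Cat (-0.41) had an unadjusted p under 0.05, as did 63.3% of all genes. Of 7 ferroptosis genes, Ptgs2 rose at 24 h (1.59 and 2.61) and Lpcat3 fell (-0.92 and -0.91), and Ncoa4 rose after 20 Gy (0.60).

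The other called genes behind these counts at 24 h are named here after their values were seen. Among regulators, Rbx1, the RING subunit of the ubiquitin ligase that KEAP1 serves, fell after 5 Gy (-0.60) and Nfe2, a relative of NRF2, fell after 20 Gy (-0.93). In the glutathione list Chac1, which breaks glutathione down, rose after both doses (2.71 and 1.41) and Gsr, glutathione reductase, rose after 5 Gy (0.81), while Gpx7 (-1.24 and -1.34), Gpx8 (-0.85 and -0.69) and Gsta4 (-0.71 and -0.60) fell after both. In the thioredoxin list Txn1, the cytosolic thioredoxin that Txnrd1 reduces, fell after both doses (-0.84 and -0.71), and Txn2 (-0.60) and Prdx2 (-0.61) fell after 5 Gy. Of the iron genes, the ferritin light chain Ftl1 (0.88) and the iron exporter Slc40a1 (0.83) rose after 5 Gy, and Blvra, which reduces the biliverdin that Hmox1 makes, fell after 20 Gy (-0.60). Among detoxification genes Osgin1 (2.05 and 1.64) and the exporter Abcc4 (1.33 and 0.77) rose after both doses, Cbr1 rose after 20 Gy (0.91) and Nqo2 fell after 5 Gy (-0.59). The minimum mean of 5 FPKM for genes named by the rule was not applied here, and some were low. Slc40a1 was 0.230 to 0.274 FPKM in the controls and 0.772 to 1.52 at 24 h after 5 Gy. Nfe2 was 1.60 to 2.28 FPKM in the controls and 0.312 to 0.827 at 24 h after 20 Gy.

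**Figure D4:**
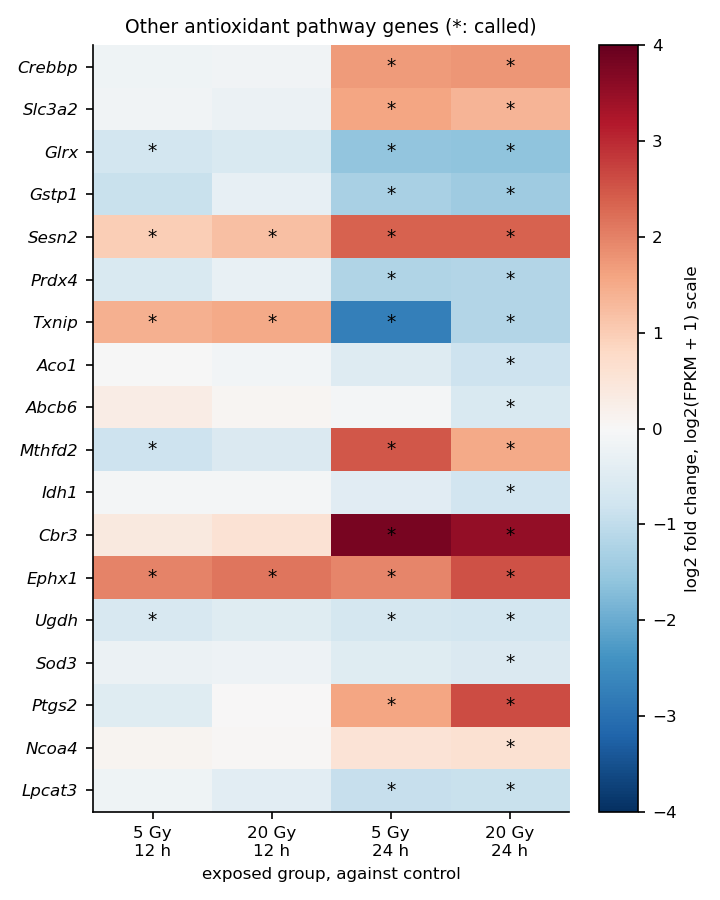
Log2 fold change against control on the log2(FPKM + 1) scale (colour) of 18 genes of the further lists (rows), which were not limited to NRF2 targets, in the 4 exposed groups (columns); asterisks mark calls. Cbr3 has the largest values, 3.79 and 3.51 at 24 h, Ephx1 and Sesn2 are called in all 4 groups, and Txnip is called above 0 at 12 h and below 0 at 24 h.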

How the data were processed

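RNA of rat primary cells labelled BMECs was sequenced as 15 poly-A libraries (Illumina HiSeq 2500, reads of 150 bases). Per the labels and the study's methods, the authors trimmed reads with Trimmomatic, aligned them to Rnor_6.0 with HISAT2 2.0.13 and assembled transcripts with StringTie 1.3.5. The authors deposited FPKM per transcript, that is fragments per kilobase of transcript scaled to library size, which are not counts. They tested counts with edgeR, and those counts were not analysed here. From low FPKM values, 81.3% to 85.1% came out as whole bases per library within a tolerance of 0.1, which gave the aligned gigabases.

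FPKM was summed per gene over rows with its name and over unnamed rows of a locus that holds only that name. Genes with a mean of at least 0.5 FPKM were tested with limma 3.58.1 (R 4.3.3) on log2(FPKM + 1), a pseudocount of 1, with 1 mean per group, a trend and all 15 libraries sharing the spread. P-values were Benjamini-Hochberg adjusted over 17895 genes. Calls required an adjusted p below 0.05 with at least a 1.5-fold change. The procedure was tested on simulated data, of which no result is given here. All listed genes are named. Of each further list, up to 2 rises and 2 falls called at 24 h after 20 Gy with a mean of at least 5 FPKM are named, largest first. For a listed gene called in at least 3 of 4 comparisons with control, its 3 nearest genes are given. The members and lists were chosen with earlier results of these data known. Alternatives were another pseudocount, filter, normalization, row rule, fold and sample set, a replicate block and leaving out each library. A fit over single transcripts and one without the third library of both 12 h groups were added after seeing the data.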

Additional observations from a re-analysis of the deposited data

Results flagged for a closer look

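The change from 12 h to 24 h was called for 4 of the 8 tested genes after 5 Gy, against 36.4% of all genes. After 20 Gy it was called for 2, against 36.3%. Hmox1 was called at both doses, which makes 5 genes in all. The other 3 genes also had an adjusted p under 0.05 after 5 Gy with a smaller change, Nfe2l2 at 0.34, Keap1 at 0.41 and Gpx4 at -0.40. In that comparison all 8 genes had an unadjusted p under 0.05 by limma, as did 59.4% of all genes. Hmox1 rose by 2.01 log2 units after 5 Gy and by 1.92 after 20 Gy (limma adjusted p = 1.795e-08 and 2.393e-08), with every library of 24 h above every library of 12 h. Against the same controls it was lower at 12 h and higher at 24 h. Nqo1 fell by 1.48 after 20 Gy (adjusted p = 0.00412). Gclc rose by 0.91 (adjusted p = 0.0001793), Gclm by 0.83 (adjusted p = 0.0009678) and Txnrd1 by 0.67 (adjusted p = 0.00929) after 5 Gy. For none of these 5 genes was the change over time called different between the doses by limma, and Gclc and Gclm had an unadjusted p under 0.05. The fibroblast marker sum and the heat shock sum moved over the same step, and their part was not tested.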

How the results depend on the processing

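Of 1263 single-gene values recomputed under the alternatives, 9 lost a call with the same sign and 16 gained one. A further 5 that had been called changed sign, whether or not they were called again. The other 1233 stayed on their side of the threshold, and over all values 49 that were not called had the other sign. The reversals came from the choice of rows. With only rows that carry the gene name, Nfe2l2 at 24 h against control was -2.06 after 5 Gy (limma adjusted p = 0.0252), called lower. After 20 Gy it was -1.24 (adjusted p = 0.161), not called. With the highest transcript alone, Keap1 there was -0.33 and -1.41 (limma adjusted p = 0.785 and 0.204). Txnrd1 from 12 h to 24 h after 5 Gy was -1.88 (adjusted p = 0.139). None of these values of Keap1 and Txnrd1 was called. The replicate block, which pairs libraries by number, called Nqo1 from 12 h to 24 h after 5 Gy at -0.90 and changed no other call of the 8 genes. The numbers are not stated to mark a shared animal, and residuals of same-numbered libraries correlated at -0.18 to 0.23, so the block is given as an alternative only.

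The number of the 8 genes called at 24 h was 1 at each dose, and that between the times after 5 Gy was 1, with a fold change of at least 2. At 12 h after 5 Gy it was 2 with the highest transcript. At 12 h after 20 Gy it was 2 with quantile normalization, on TPM, with the highest transcript and without the third library of both 12 h groups, and 1 to 2 when single libraries were left out. At 24 h after 20 Gy it was 2 with named rows only. Over all genes, a fold change of at least 2 gave 588 and 433 calls at 12 h after 5 Gy and 20 Gy, 3584 and 3444 at 24 h, 2834 and 2817 between the times, 10 and 119 between the doses at 12 h and 24 h, and 57 for the change over time between the doses. Between the doses at 12 h the count was 12 with a pseudocount of 0.1, 48 with quantile normalization, 2 with only the groups compared, 6 with named rows, 11 with the highest transcript 8 without the third library of both 12 h groups, and 5 to 29 when single libraries were left out. Between the doses at 24 h it was 727 on TPM, 37 with only the groups compared, 246 with named rows and 276 with the highest transcript. For the change over time between the doses it was 47 with only the groups compared, 58 with named rows 35 without the third library of both 12 h groups, and 44 to 229 when single libraries were left out (229 without the third library of 24 h after 20 Gy).

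Scaling moved the median of all genes at 24 h after 20 Gy from -0.14 to -0.03 and that from 12 h to 24 h after 20 Gy from -0.15 to -0.04 with quantile normalization. The share of calls that were higher went from 39.5% to 56.9% (quantile) and 27.6% (TPM) between the doses at 24 h, from 47.3% to 62.2% and 30.4% for the change over time between the doses, and from 38.9% to 49.8% (quantile) from 12 h to 24 h after 20 Gy. Of 28 differences of marker lists from control, 6 had the other sign as mean log2 values, those of pericytes at 12 h after both doses, astrocytes at 24 h after both doses, and oligodendrocytes in the 12 h group of 20 Gy and the 24 h group of 5 Gy. The fibroblast list kept its sign in each. With 3 libraries a group, and FPKM without counts, small changes of low genes could not be resolved.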
